A study of Bos taurus with 56 samples.

Results

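GAT codes for a glycine N-acyltransferase, and its row of the bovine read-count table was followed over all 12 conditions of the study, as 1 gene of 31903. The gene was chosen by its measured level: of all genes it had the smallest p, though not the largest fold change, between heifers and cows that were never milked in the isthmus on the side of ovulation, and it was close to absent from the ampulla. Its levels in that part of the isthmus, the differences between sides and the interactions that include the heifers or non-lactating cows there, and its contrast between the regions are therefore given as a description, with no test. Tests are kept for the groups of the contralateral isthmus and for the sides in lactating cows. A test of the groups within the contralateral ampulla is also given, though it cannot decide, since GAT was chosen as near absent there.

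RNA was sequenced from oviduct epithelium scraped from 14 Holstein animals on Day 3 after a synchronized estrus. There were 5 nulliparous heifers, 5 non-lactating cows that had calved but were never milked, and 4 lactating cows, the cows being about 60 days post-partum. All groups had received an intravaginal progesterone device, a prostaglandin F2 alpha analogue and buserelin. Each animal gave 4 libraries, from the ampulla (the wide part near the ovary) and the isthmus (the narrow part near the uterus) of the oviduct ipsilateral and of the oviduct contralateral to the corpus luteum (CL), which makes 56 libraries of 1901454 to 6836850 counts on genes. Heifers had never calved and both cow groups had, so that calving and any other trait that sets heifers apart from cows cannot be told apart. Animals are named here by letters within their group.

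Glycine N-acyltransferases join glycine to acyl groups carried on coenzyme A. They work in mitochondria, where they turn acyl-CoA or benzoyl-CoA into acylglycines that leave the body in urine, and they are best known from liver and kidney. The reaction needs an acyl-CoA ligase or dehydrogenase step that supplies the acyl-CoA, a supply of coenzyme A, and glycine. In the cattle genome the family lies together: in the RefSeq order of assembly ARS-UCD2.0, GLYAT follows GAT (gene 280801) with 1 uncharacterized locus between, and GLYATL2 comes next but one. The reads had been mapped to the older build Btau_4.6.1, so no coordinates are given. The loci directly beside GAT were not rows of the table. LOC518623, the next row on the other side, had 2 counts over all libraries. Reads that match more than one of these related loci may have been lost in the counting, and values of GAT carry that uncertainty.

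The libraries were first checked against markers. EPCAM, an epithelial adhesion protein, lay at 299 to 512 CPM in the isthmus (counts scaled to 1000000 a library), and FOXJ1, the transcription factor of ciliated cells, at 152 to 289 CPM. OVGP1, the oviduct glycoprotein of secretory cells, ranged from 37.4 to 18700 CPM. The summed level of 8 smooth muscle markers was 16.4 to 131 CPM and that of 5 red blood cell markers 0 to 0.958 CPM in the isthmus. The animal numbers in the table were checked with 200 genes that differ between animals: 28 of 28 isthmus libraries resembled the other libraries of their own number most, and 24 of 28 ampulla libraries did. The 4 that did not were ipsilateral ampulla libraries. The one of heifer B resembled non-lactating cow B most, and the reverse. A library of the non-lactating group carried the number of lactating cow B and resembled non-lactating cow C, and a library of the lactating group carried the number of non-lactating cow C and resembled lactating cow B. Isthmus results do not rest on them.

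In the isthmus every library held GAT, with 15 to 414 counts, and heifers stood highest. The 5 heifers had 98.6, 77.3, 64.5, 68.4 and 73.2 CPM (animals A to E) in the ipsilateral isthmus, a mean of 76.4 ± 13.3 (SD, n = 5). The 5 non-lactating cows had 19.96, 17.4, 22.2, 23.8 and 22.5 CPM, a mean of 21.2 ± 2.53 (SD, n = 5). The 4 lactating cows had 10.7, 32.3, 42.8 and 36.1 CPM, a mean of 30.5 ± 13.9 (SD, n = 4). The lowest heifer lay above the highest cow of either group, and the lactating cows lay on both sides of the non-lactating ones. The non-lactating cows were close to each other, with a coefficient of variation of 11.9%, against 17.4% in heifers and 45.6% in lactating cows. The choice of GAT by its p between heifers and non-lactating cows here favours a narrow spread in those groups.

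On the contralateral side the means of heifers and cows lay closer together, and the non-lactating cows were spread more widely than ipsilaterally. The heifers had 77.6, 50.1, 38.3, 70.1 and 42.9 CPM, a mean of 55.8 ± 17.2 (SD, n = 5). The non-lactating cows had 41.1, 7.71, 45.5, 44.0 and 15.8 CPM, a mean of 30.8 ± 17.7 (SD, n = 5). The lactating cows had 27.3, 37.5, 9.09 and 26.7 CPM, a mean of 25.1 ± 11.8 (SD, n = 4). Cows A, C and D of the non-lactating group overlapped the lower heifers, while cows B and E lay well below them. The library of non-lactating cow B, lowest in GAT, was also the shallowest of the study, with 1901454 counts and 15 of them on GAT. Every lactating cow lay below every heifer, by a narrow margin between 37.5 and 38.3 CPM.

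**Figure D1:**
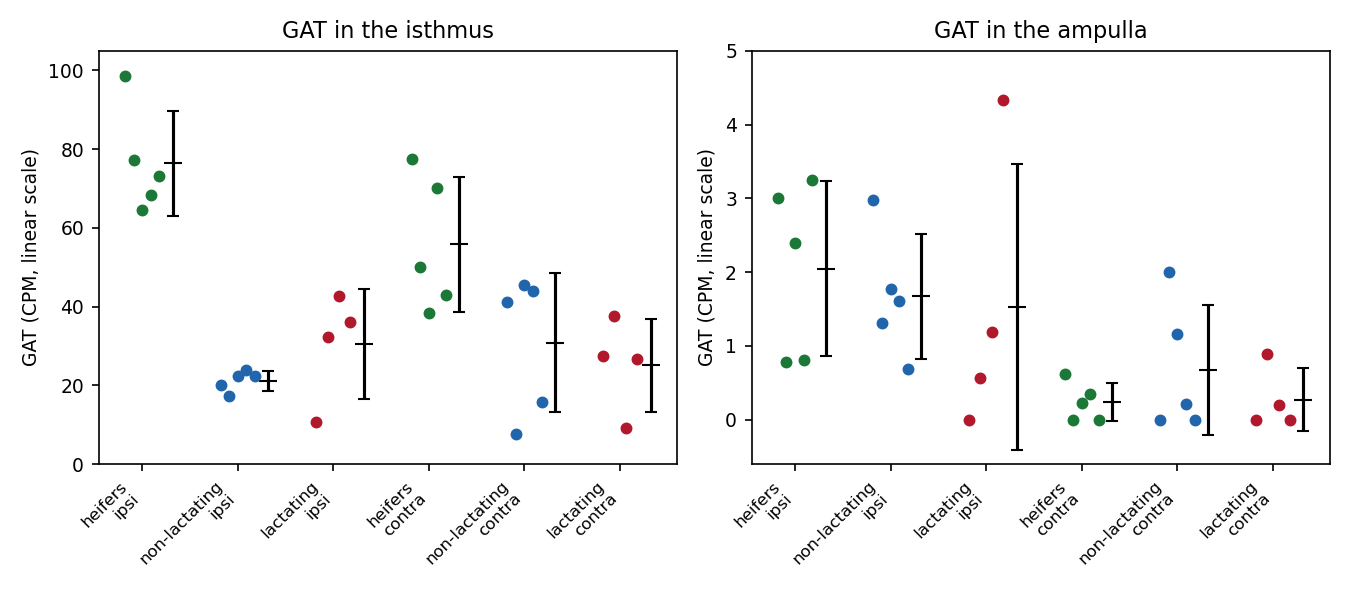
GAT in each library (points, CPM) of heifers (green), non-lactating cows (blue) and lactating cows (red), ipsilateral (ipsi) and contralateral (contra) to the CL, with the mean and SD of each group in black beside the points. The panels have different axes: no ampulla library reaches the lowest isthmus library, at 7.71 CPM.

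In the ampulla GAT was near the limit of detection. In the ipsilateral ampulla the heifers had 3.01, 0.78, 2.39, 0.81 and 3.25 CPM, from 3 to 17 counts each. The 5 libraries of the non-lactating group had 1.31, 1.77, 1.60, 0.69 and 2.98 CPM, the last being the one with the number of lactating cow B. The 4 libraries of the lactating group had 0, 0.56, 1.19 and 4.34 CPM, the last being the one with the number of non-lactating cow C. The groups overlapped, with means of 2.05 ± 1.19 (SD, n = 5), 1.67 ± 0.84 (SD, n = 5) and 1.52 ± 1.94 (SD, n = 4). In the contralateral ampulla the heifers had 0.62, 0, 0.22, 0.35 and 0 CPM, the non-lactating cows 0, 2.01, 1.16, 0.22 and 0 CPM, and the lactating cows 0, 0.90, 0.19 and 0 CPM. These values rest on 0 to 10 counts a library, and 10 of the 14 had fewer than 3 counts. Across both sides 7 libraries had no count, which allows up to 0.495 to 0.961 CPM in them (3 counts a library, counting error only).

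Averaged over 28 libraries each, GAT had 40.8 CPM in the isthmus and 1.08 CPM in the ampulla, a ratio of 37.7. Within groups this ratio was 57.8 in heifers, 22.1 in non-lactating cows and 31.0 in lactating cows. Of the 16060 genes kept over the 12 conditions, 88 had a larger ratio of isthmus to ampulla, and the median ratio of all genes was 0.985. On the contralateral side alone the edgeR quasi-likelihood fit gave GAT a log2 fold change of 6.48 (SE 0.43) between isthmus and ampulla. Ordered by mean level, the conditions ran from the ipsilateral isthmus of heifers through the contralateral isthmus of heifers, the contralateral isthmus of non-lactating cows, the ipsilateral and contralateral isthmus of lactating cows and the ipsilateral isthmus of non-lactating cows to the ipsilateral ampulla of heifers, non-lactating and lactating cows, and last the contralateral ampulla of non-lactating cows, lactating cows and heifers. Of the 11 steps between neighbours in this order, libraries failed to overlap at 1, the step from the ipsilateral isthmus of non-lactating cows to the ipsilateral ampulla of heifers. The step from the ipsilateral to the contralateral isthmus of heifers, 20.6 CPM against a pooled SD of 15.4, and the step from there to the contralateral isthmus of non-lactating cows, 25.0 CPM against 17.5, exceeded 1 pooled SD, and the 8 other overlapping steps were smaller than their pooled SD.

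Between the groups, the ipsilateral isthmus is where the gene was chosen. There the log2 fold change of GAT was -1.83 (SE 0.14) in non-lactating cows against heifers, which is 0.281 times the heifer level, -1.32 (SE 0.30) in lactating cows against heifers and 0.52 (SE 0.30) in lactating against non-lactating cows. In the first of these contrasts 1 of 13703 genes passed an adjusted p of 0.05, 0.0073% of those tested, and that gene was GAT, as the choice of it fixed. The libraries of non-lactating cows and heifers failed to overlap, in either direction, for 2.12% of 16060 genes and those of lactating cows and heifers for 3.2%, GAT being among both; those of the 2 cow groups failed to for 1.81%, GAT not being among them. RNA was taken from scraped tissue, so that fewer cells that make GAT and less GAT RNA per cell cannot be told apart.

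Of the sums of cell type markers, those of ciliated cells and of epithelium separated heifers from non-lactating cows on the ipsilateral side, and the others did not. The summed level of 12 ciliated cell markers was 4730 to 5820 CPM in heifers and 5860 to 6820 CPM in non-lactating cows, with no overlap, and 11 of the 12 had a positive fold change, 0 of them past the test. The summed level of 7 epithelial markers was 1690 to 2080 CPM in heifers and 1510 to 1660 CPM in non-lactating cows, again with no overlap and with 6 of 7 negative. The median log2 fold change of all genes in this contrast was 0.01. Against heifers, lactating cows overlapped in both sums, at 4540 to 6400 CPM and 1410 to 2040 CPM. Leukocyte markers, 10 genes, summed to 16.9 to 38.5 CPM in heifers, 27.3 to 46.5 CPM in non-lactating cows and 31.0 to 182 CPM in lactating cows. The sums of 8 secretory cell markers overlapped, at 3810 to 16000 CPM in heifers and 12400 to 17400 CPM in non-lactating cows, with 5 of 8 positive. Those of smooth muscle, fibroblast and endothelial markers overlapped between these 2 groups too. The part of these markers in the level of GAT was not tested. A sum is set mostly by its highest markers, which for secretory cells is OVGP1 (median 10500 CPM in the isthmus). For ciliated cells these are DNAH9 (median 1860 CPM) and HYDIN (median 1560 CPM). On the contralateral side 12 of 12 ciliated cell markers had a positive fold change in non-lactating cows against heifers (median 0.27, 11 of 12 and 0.26 ipsilaterally) and 10 of 12 in lactating cows (median 0.18), 0 of them past the test. The ciliated sums overlapped there, at 5030 to 6380 CPM in heifers, 5410 to 7070 CPM in non-lactating and 5270 to 6850 CPM in lactating cows. The epithelial sums overlapped there too, at 1410 to 1620 CPM, 1240 to 1710 CPM and 1310 to 1510 CPM in the same order of groups.

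The contralateral isthmus of the same animals, which the choice of GAT did not use, was the test of whether the difference between heifers and cows was also there. The mean of GAT was lower in both cow groups than in heifers, and neither difference passed the threshold over all genes. Post-partum cows, as the mean of both groups, had a log2 fold change of -0.98 (SE 0.35) against heifers, 0.507 times the heifer level, with an adjusted p of 0.32 over 14205 genes. Non-lactating cows differed from heifers by -0.81 (SE 0.37, adjusted p = 0.542) and lactating cows by -1.14 (SE 0.34, adjusted p = 0.372). Lactating and non-lactating cows differed by -0.33 (SE 0.48, adjusted p = 1). No gene was called in any of the 4 contrasts (0% of the genes tested), while the unadjusted p was under 0.05 for 1672, 1240, 1478 and 548 genes and that of GAT was 0.0124, 0.0496, 0.00653 and 0.508. DESeq2 called 69, 32, 73 and 2 genes in these contrasts, and GAT was not among them, with adjusted p from 0.0911 to 1.

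Taken as a single value, GAT was also compared by exact two-sided permutation of log2 CPM over libraries. The p-values were adjusted over a family of 9 exact tests, not all of this kind. It also held the groups of the contralateral ampulla, permuted as CPM, and the sides of the ampulla, by flipping signs of paired CPM differences. The sides of the ampulla, and of the isthmus in heifers and non-lactating cows, are given without a test in this report, yet they entered the adjustment. The difference between post-partum cows and heifers in the contralateral isthmus was -1.15, with a permutation p of 0.0275 and 0.0824 after Benjamini-Hochberg adjustment over the 9 tests. Lactating cows differed from heifers by -1.25, with a permutation p of 0.00794, the smallest that 5 against 4 animals can give, and 0.0357 after adjustment. That adjusted value depends on which comparisons the family holds. Some of them are not read as tests here, and the sides of the ampulla were added after the data were seen. The adjusted value is therefore not read as passing. All 4 lactating cows lay below all 5 heifers here, as 3.31% of genes did in one direction or the other. Non-lactating cows differed from heifers by -1.08 (permutation p = 0.0794, adjusted 0.171) and overlapped with them, as the groups did for all but 1.35% of genes. The 2 cow groups overlapped too, as they did for all but 1.21%. The sizes of the drop on the 2 sides do not come from independent animals, since each animal gave both oviducts.

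**Figure D2:**
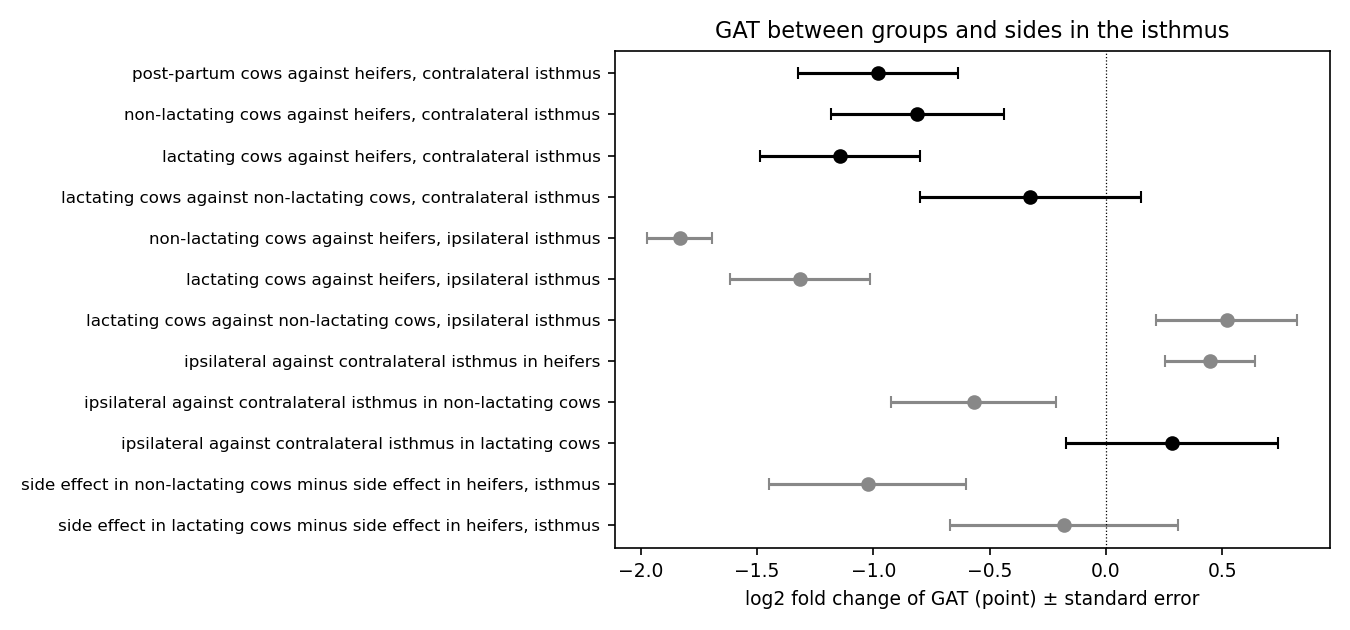
Log2 fold changes of GAT (points) with their standard errors (bars) from edgeR in the isthmus. The grey points include the ipsilateral isthmus libraries by which GAT was chosen and are shown as description; of the black points, none passed an adjusted p of 0.05.

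Between the sides, the ipsilateral values of heifers and of non-lactating cows are those by which GAT was chosen, as high in the former and low in the latter, so that opposite directions of their side differences are partly fixed by the choice. GAT was higher on the ipsilateral side in 4 of 5 heifers, by 21.0, 27.2, 26.2 and 30.3 CPM in heifers A, B, C and E, and lower by 1.78 CPM in heifer D. In non-lactating cows it was lower on the ipsilateral side in A, C and D, which had 0.486, 0.489 and 0.54 times their contralateral level, and higher in B and E, by 9.67 and 6.65 CPM. In lactating cows it was higher in C and D, by 33.7 and 9.45 CPM, and lower in A and B. The ipsilateral values of the non-lactating cows lay within 17.4 to 23.8 CPM, while their contralateral levels ran from 7.71 to 45.5 CPM. A choice by the smallest p favours a narrow spread of the ipsilateral values, so that this contrast is partly fixed too.

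The log2 fold change of ipsilateral against contralateral isthmus was 0.45 (SE 0.19) in heifers and -0.57 (SE 0.36) in non-lactating cows, and 0.48 and -0.40 once blocked on the animal. The side effect in non-lactating cows minus that in heifers was -1.03 (SE 0.43), and that in lactating cows minus that in heifers -0.18 (SE 0.49). These values hold the ipsilateral libraries that the choice used and are given without a test. In lactating cows the log2 fold change was 0.29 (SE 0.46, adjusted p = 0.869), and 0.26 (adjusted p = 0.811) with the block. Over all genes, 10% of 13548 were called between the sides in heifers, 5.11% in non-lactating cows and 0.187% in lactating cows. No gene was called in either interaction (0%), while the unadjusted p was under 0.05 for 444 and 366 genes and DESeq2 called 0 genes in both.

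**Figure D3:**
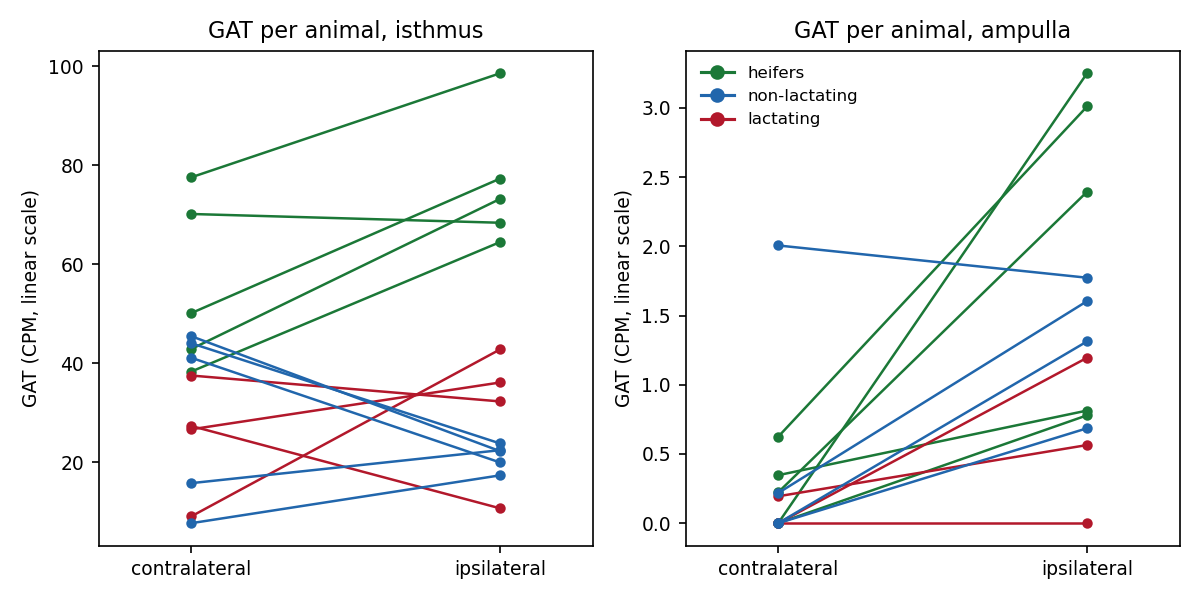
GAT (CPM) in the contralateral and ipsilateral oviduct of each animal, 1 line an animal, for heifers (green), non-lactating cows (blue) and lactating cows (red); the 2 panels have different axes. In the isthmus 8 of 14 lines rise towards the ipsilateral side; in the ampulla, where 12 animals had both libraries under their own number, 10 rise, 1 falls and 1 stays at 0.

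In the ampulla GAT was low on both sides, and most animals had more of it on the ipsilateral side. Of the 12 animals with both ampulla libraries under their own number, GAT was higher on the ipsilateral side in 10, lower in non-lactating cow B and at 0 on both sides in lactating cow A. The mean was 1.45 CPM on the ipsilateral and 0.301 CPM on the contralateral side, a difference of 1.15 CPM. The comparison was chosen after these values were seen and is given without a test. Without heifer B and cow B of the non-lactating group, whose ipsilateral libraries resembled each other's animal, the difference was 1.32 CPM (n = 10). The libraries of the exchanged numbers had 2.98 CPM in the non-lactating group and 4.34 CPM in the lactating group, and the contralateral ampulla of the animals they resembled had 1.16 and 0.90 CPM. By the group contrast in the contralateral ampulla, post-partum cows differed from heifers by 0.258 CPM (exact permutation p = 0.499). That test cannot decide whether the groups differ there. GAT was chosen as near absent from the ampulla, and 10 of these 14 libraries had fewer than 3 counts. Beside the side difference of GAT, a panel of the 20 genes with the largest ratios of isthmus to ampulla was read. Its genes had 10 CPM or more in the isthmus, and it was also chosen after the data were seen. Of these, 4 had a higher mean in the ipsilateral ampulla and the median log2 ratio of the sides was -0.08. The panel was chosen for low levels in the ampulla, where the pseudocount of 0.1 CPM shrinks such ratios. It therefore cannot show whether GAT differs from other isthmus genes in this respect.

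The same panel was set beside GAT in the isthmus, as a description. It held GRP, which codes for gastrin-releasing peptide, PDZK1, a scaffold protein of membrane transporters, and NPPC, which codes for C-type natriuretic peptide. In the ipsilateral isthmus 3 of the 20 genes had a higher mean in non-lactating cows than in heifers, with a median log2 ratio of -0.76 and a range from -3.50 to 0.85, so that GAT, at -1.83 in its fit, lay within it. In lactating cows against heifers 10 of 20 were higher, with a median of -0.06. On the contralateral side 5 of 20 were higher in each cow group, with medians of -0.58 in non-lactating and -0.68 in lactating cows. The median log2 fold change of all genes in these contrasts was between 0.00666 and 0.0113.

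The rest of the glycine conjugation pathway was read from the same fits. Of 9 other genes listed with the acyltransferase family, 5 were found in the table by symbol, and all were scarce. The list was wider than the GLYAT genes and also held NAT8, NAT8B, AANAT and BAAT. GLYAT, the liver enzyme, had 5 counts in 3 libraries, GLYATL2 4 counts in 3 libraries and GLYATL3 50 counts in 21 libraries. AANAT, which acetylates serotonin, had 8 counts in 6 libraries. NAT8, an acetyltransferase of cysteine conjugates, had 226 counts in 45 libraries and was the only one of them to pass the count filter in any fit, with a log2 fold change between isthmus and ampulla of 0.38 (SE 0.50, adjusted p = 0.567). NAT8 had means of 0.466 ± 0.502, 1.49 ± 0.724 and 1.90 ± 1.5 CPM (SD, n = 5, 5 and 4) in the contralateral isthmus of heifers, non-lactating and lactating cows, an order opposite to that of GAT. In the ipsilateral isthmus its means were 0.743, 0.564 and 0.554 CPM, highest in heifers as for GAT. NAT8 did not pass the count filter in any fit within the isthmus, so these orders of low values were not tested. GLYATL1, GLYATL1B, BAAT and NAT8B were not found by symbol.

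The medium-chain acyl-CoA ligases, which make the acyl-CoA that glycine N-acyltransferases use, were found in part. ACSM1 had 27072 and ACSM3 13112 counts over all 56 libraries, while ACSM2B had 29 counts and ACSM5 5. Between the regions on the contralateral side, ACSM1 was lower in the isthmus (log2 fold change -1.17, SE 0.20, adjusted p = 2.04e-05) and ACSM3 higher (1.16, SE 0.25, adjusted p = 0.000395). In that contrast 43.5% of 15387 genes were called, 21.5% higher and 22% lower, with metabolic group but not animal as a term. ACSM1 had 34.0 ± 14.8, 53.3 ± 30.7 and 65.9 ± 20.5 CPM (SD, n = 5, 5 and 4) in the contralateral isthmus of heifers, non-lactating and lactating cows. Its log2 fold change against heifers was 0.79 (SE 0.37, adjusted p = 0.426) in post-partum cows, opposite in sign to that of GAT and not past the test. ACSM1 was higher on the ipsilateral side of the heifer isthmus (1.14, SE 0.31, adjusted p = 0.0378).

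**Figure D4:**
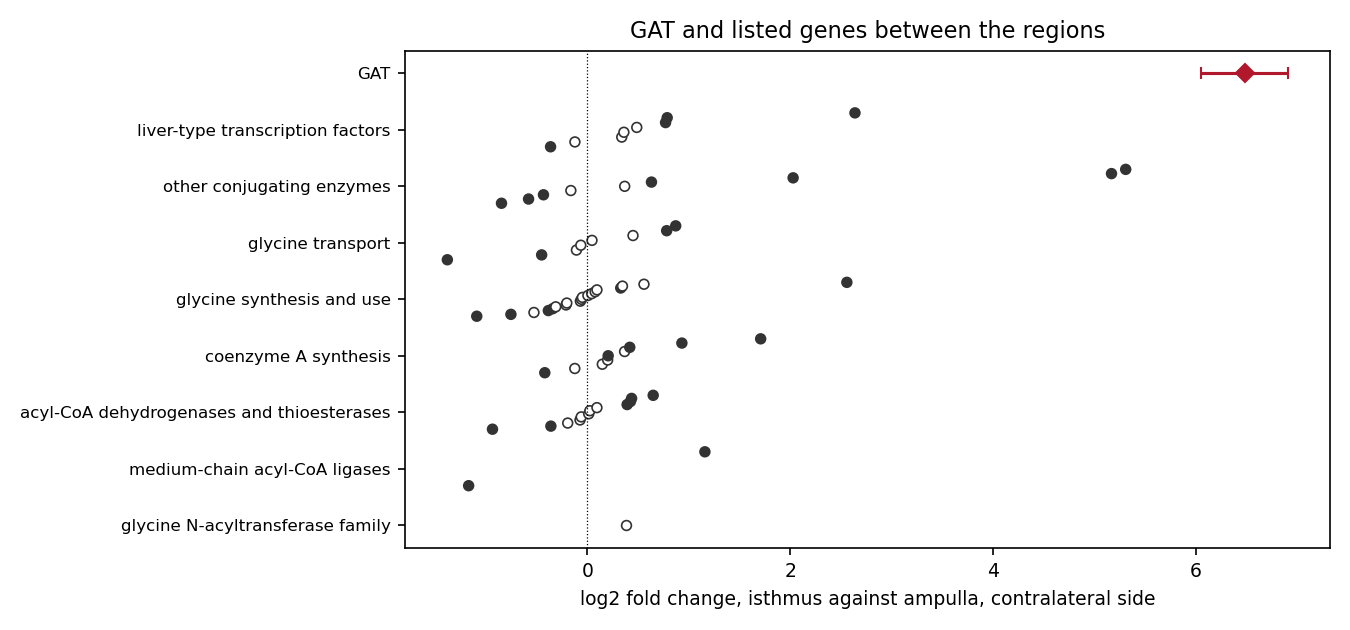
Log2 fold change between isthmus and ampulla on the contralateral side for the listed genes that were tested, by list (circles, filled where the adjusted p was under 0.05), and for GAT (red diamond with its standard error, description only). GAT stands at 6.48, to the right of UGT8 at 5.31 and UGT1A1 at 5.17, and the next gene is FOXA3 at 2.64.

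In none of the 4 contralateral and 3 ipsilateral group contrasts of the isthmus was a gene of the 8 pathway lists called. Over all genes, 0% were called in each of these contrasts but non-lactating cows against heifers on the ipsilateral side. There 0.0073% of 13703 were called, which is GAT alone. The absence of listed genes is therefore not read as a result. In non-lactating cows against heifers on the ipsilateral side, where GAT was chosen, 11 of 12 acyl-CoA dehydrogenases and thioesterases tested had a negative fold change, with a median of -0.11, and 11 of 16 genes of glycine synthesis and use did, with a median of -0.08, against a median of 0.01 over all genes, while 7 of 9 genes of coenzyme A synthesis were positive, with a median of 0.07. In the same groups on the contralateral side, 6 of 12, 10 of 16 and 4 of 9 genes of these lists were negative, with medians of 0.02, -0.05 and 0.04. Between regions the lists held calls in both directions, where 21.5% of all 15387 genes were higher in the isthmus and 22% lower. The values that follow are log2 fold changes of isthmus against ampulla. Every gene named as higher or lower had an adjusted p under 0.05. Of 12 acyl-CoA dehydrogenases, carboxylases and thioesterases tested, 4 were higher in the isthmus and 2 lower: MCCC2, a subunit of the carboxylase of leucine breakdown, at 0.65, ACOT11, a thioesterase, at 0.44, ACAD8, of valine breakdown, at 0.43, and ACADS, the short-chain dehydrogenase, at 0.39, against ACOT13, another thioesterase, at -0.94 and MCCC1, the other subunit, at -0.36. Of 9 genes of coenzyme A synthesis and transport, 4 were higher and 1 lower. SLC25A42, which carries coenzyme A into mitochondria, stood at 1.71 (SE 0.29) and SLC5A6, the pantothenate transporter, at 0.93.

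Glycine genes were also called in both directions, as all genes were (21.5% higher and 22% lower in the isthmus). Of 19 genes of glycine synthesis and use tested between regions, 2 were higher and 4 lower in the isthmus. PHGDH, the first enzyme of serine synthesis, was higher at 2.56 (SE 0.22), and ALAS1, which uses glycine for heme, at 0.33. GCAT, which forms glycine from threonine, was lower at -1.09 (SE 0.15), and GATM, which uses glycine for creatine, at -0.75. Of 8 glycine transporters, 2 were higher and 2 lower: SLC6A9, the glycine transporter GLYT1, at 0.87 and SLC38A2 at 0.78, against SLC36A2, a proton-coupled transporter, at -1.38 and SLC6A20 at -0.45.

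The conjugating enzymes of other kinds held the largest regional differences of the lists. Of 9 tested, 4 were higher in the isthmus and 3 lower, where 21.5% and 22% of all genes were. UGT8, which galactosylates ceramide, stood at 5.31 (SE 0.56, adjusted p = 4.84e-09) and UGT1A1, which glucuronidates bilirubin, at 5.17 (SE 0.55, adjusted p = 4.67e-09). UGT1A1 shares exons with other genes of its locus, so that its counts are uncertain. UGT8 had 0.0427 to 0.194 CPM and UGT1A1 0 to 0.505 CPM as group means in the contralateral ampulla, and both were low in the isthmus too, with group means of at most 7.53 and 8.28 CPM on that side. SULT1A1, which sulfates phenols, was higher at 2.03 (SE 0.25), and EPHX1, an epoxide hydrolase, lower at -0.85. Of 8 liver-type transcription factors tested, 3 were higher in the isthmus, FOXA3 at 2.64 (SE 0.60), PPARA at 0.79 and PPARGC1A at 0.77, and FOXA2 was lower at -0.36.

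Between the sides of the isthmus, listed genes changed in heifers and in non-lactating cows. In heifers, 8 of the 62 tested over the 8 lists were higher on the ipsilateral side and 2 lower, where 5.71% and 4.34% of all genes were. On the log2 scale GNMT, which methylates glycine, rose by 1.33 (SE 0.31, adjusted p = 0.0199), SULT1A1 by 1.3, GCAT by 1.03, ACADSB, a branched-chain dehydrogenase, by 0.97 and PSAT1, of serine synthesis, by 0.96, with GART at 0.66 and DLD at 0.35. VNN1, a pantetheinase that breaks down a product of coenzyme A, was lower at -1.95 (SE 0.22, adjusted p = 0.00355), and SLC38A2 at -0.81. In non-lactating cows 4 of 63 were higher and 3 lower, against 2.94% and 2.17% of all genes. There GNMT at a log2 fold change of 1.62, SLC5A6 at 1.33, ACADSB at 1.17 and MCCC2 at 0.78 were higher, and VNN1 at -1.58, SLC25A42 at -1.05 and SLC38A2 at -0.86 were lower. In lactating cows 0 of 63 were called, where 0.144% of all genes were higher and 0.0432% lower.

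Genes with a pattern like that of GAT were sought by Pearson's r of log2 CPM. Over the 12 condition means the most alike were TTYH3, a membrane protein of the tweety family (r = 0.992), WNT5A, a WNT ligand (0.991), SLC30A5, a zinc transporter (0.990), SLC12A2, a sodium, potassium and chloride cotransporter (0.990), and SRSF2, a splicing factor (0.990). The 12 points share animals, and 6 of them are isthmus and 6 ampulla, so that the value is set mostly by the step between regions: 1099 of 16059 genes had an r above 0.9. The 5 genes fell less steeply than GAT. SLC12A2 had means of 131, 82.1 and 79.0 CPM in the ipsilateral isthmus and 116, 71.3 and 68.9 CPM in the contralateral isthmus of heifers, non-lactating and lactating cows, against 14.5 to 18.1 CPM in the ampulla. SLC30A5 had 538, 387 and 393 CPM ipsilaterally and 492, 346 and 318 CPM contralaterally, against 90.6 to 149 CPM in the ampulla. Neither passed the test between post-partum cows and heifers on the contralateral side, with log2 fold changes of -0.72 (SE 0.26, adjusted p = 0.327) and -0.57 (SE 0.18, adjusted p = 0.299). Both genes were picked by condition means that include these groups, so that a direction like that of GAT is partly fixed by the choice.

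**Figure D5:**
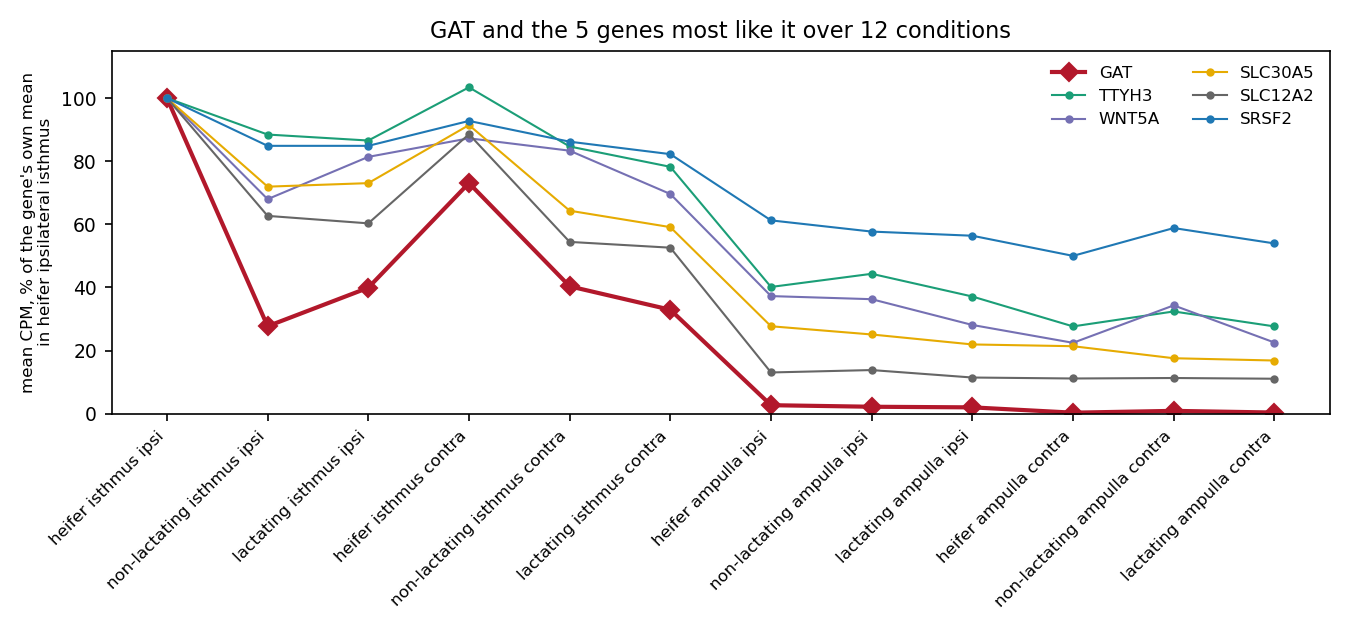
Mean CPM of GAT (red diamonds) and of the 5 genes most like it, in each of the 12 conditions, as a percentage of the gene's own mean in the ipsilateral isthmus of heifers. All 6 are lower in the ampulla than in the isthmus; GAT falls furthest, both in the cows' isthmus and in the ampulla.

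Within the isthmus, after the mean of each condition was subtracted, the order changed. Over 28 libraries the genes most like GAT were MAPK8IP3, a kinase scaffold (r = 0.773, Spearman's rho = 0.718), ENPP5, of the ectonucleotide pyrophosphatase family (r = 0.763, rho = 0.61), DHRS11, a dehydrogenase (r = 0.756, rho = 0.741), ZNF235, a zinc finger protein (r = 0.747, rho = 0.635), and SNX21, a sorting nexin (r = 0.742, rho = 0.714). Leaving out 1 library at a time moved these r within 0.666 to 0.889, and no gene had an r above 0.9. The libraries come in pairs from 14 animals, and the median r of all genes was 0.00409. None of the 5 was among the 5 most alike over the conditions. ENPP5 and ZNF235 also had the highest r of the 5 over the condition means, at 0.964 and 0.951. ENPP5 had 1370, 816 and 1060 CPM in the ipsilateral isthmus of heifers, non-lactating and lactating cows, 902, 489 and 440 CPM in the contralateral isthmus and 62.0 to 124 CPM in the ampulla. Between post-partum cows and heifers in the contralateral isthmus its log2 fold change was -0.96 (SE 0.39, adjusted p = 0.371), and its fold change between sides was positive in non-lactating cows (0.74, SE 0.41, adjusted p = 0.314), where that of GAT was negative. ZNF235 had -0.41 (SE 0.13, adjusted p = 0.089) between the sides in non-lactating cows and -0.09 (SE 0.14, adjusted p = 0.847) between post-partum cows and heifers in the contralateral isthmus.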

How the data were processed

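The authors trimmed single-end reads of stranded libraries, mapped them with TopHat2 2.0.13 to Btau_4.6.1 and counted reads per gene with HTSeq 0.6.1, strand-specific and in intersection-strict mode. The deposited counts are whole numbers per gene, and 5 summary lines were left out. Columns name a group and an animal number, and sides of an animal were linked by that number (median r of 14 isthmus pairs 0.39, -0.043 to 0.55, 11 above 0.1). Levels are CPM with TMM factors over 56 libraries, and log2 CPM had a prior count of 2. Contrasts were fitted in edgeR 4.0.16 (R 4.3.3) by the quasi-likelihood F test with TMM, filterByExpr at a minimum count of 10, and Benjamini-Hochberg adjustment over all genes of the fit (threshold 0.05). SE is the absolute log2 fold change over the root of F. The scripts were tested on simulated data. DESeq2 1.42.0, other scalings and filters, each animal left out and the animal as a block were alternatives. No animal term was in the main fits, although each animal gave 4 libraries. Listed genes were matched by exact symbol. P-values of GAT between the sides of heifers or non-lactating cows, and in the interactions, are not given, since they hold the values that chose it. GAT, the gene lists and the tests were chosen with earlier results of these data known. The genes named are GAT, all genes listed with its family, all listed ligases and called genes of 8 lists. Called genes are named up to 4 a list and direction, the lower-ranked ones after their values were seen. The 5 most alike by each measure are named too. The ampulla comparison between sides and the panel of 20 genes were added after the data were seen; ratios in the panel used a pseudocount of 0.1 CPM. Values of 1 library per animal measure the spread between animals.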

Additional observations from a re-analysis of the deposited data

How the results depend on the processing

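The level of GAT in each condition moved by less than 1 SD without TMM and with RLE size factors. The direction in the contralateral isthmus was the same under every alternative run. In exact permutation tests of GAT alone the drop was -1.15 for post-partum cows against heifers (permutation p = 0.0275, 0.0824 adjusted over 9 tests). For lactating cows against heifers it was -1.25 (permutation p = 0.00794, 0.0357 adjusted). The former did not pass after adjustment. The latter is not read as passing, since its adjusted value depends on which comparisons the family of tests holds. Some of those are not read as tests, and the ampulla comparison between sides was added after the data were seen. Between the 2 cow groups the edgeR log2 fold change ran from -0.58 to -0.05 without 1 animal. With 1 animal left out, the value ranged from -1.11 to -0.84 for post-partum cows, -0.98 to -0.60 for non-lactating cows and -1.40 to -0.86 for lactating cows against heifers, with no adjusted p below 0.233 in edgeR. With the animal number as replicate block the side effect, which holds the ipsilateral values that the choice of GAT used, was 0.48 in heifers (0.45 without it), -0.40 in non-lactating and 0.26 in lactating cows, and genes called were 1916, 1038 and 323 in place of 1361, 709 and 26. The calls of GAT on the sides of heifers and non-lactating cows are not read. Without 1 animal the side effect ran from 0.38 to 0.58 in heifers, -0.76 to -0.41 in non-lactating cows and -0.20 to 0.61 in lactating cows, being -0.20 without lactating cow C. The interaction of lactating cows ran from -0.66 to 0.16, being 0.16 without lactating cow A and 0.07 without lactating cow B; the cause was not tested. That of non-lactating cows ran from -1.21 to -0.87. Genes called between the sides fell to 423, 525 and 179 without heifer A, B or E (and less far without heifer C), to 235, 311, 235 and 272 without non-lactating cow A, B, C or D, and to 11, 0, 4 and 0 without lactating cow A, B, C or D, while DESeq2 called 1914, 1252 and 333. In the ipsilateral group contrasts DESeq2 called 236, 145 and 18 genes, where edgeR called 1, 0 and 0; without the filter edgeR called 27, 4 and 0, and with all 28 isthmus libraries in one fit 8, 2 and 3. Without non-lactating cow A edgeR called 19 genes between non-lactating cows and heifers there, without heifer D 7 and without non-lactating cow C 3. In the ampulla few counts limit the precision: the side difference was 0.956 to 1.27 CPM without 1 animal, and the group difference 0.0697 to 0.355 CPM.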
